A study of Mus musculus with 16 samples.

Results

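The genes described here are 43 regulators of pre-mRNA splicing: 11 serine- and arginine-rich (SR) proteins of the Srsf family, 2 Tra2 proteins, 10 heterogeneous nuclear ribonucleoproteins (hnRNPs), 18 further regulators that differ between tissues or bind particular sequence motifs, and the 2 subunits of the U2 auxiliary factor. They were taken by symbol from a table of 30286 gene symbols, and all 43 were found. Messenger RNA had been measured in the facial prominences, buds of the developing face, at embryonic day 12 in C57BL/6 mice, after surface ectoderm and underlying mesenchyme had been separated surgically. The 4 groups were ectoderm and mesenchyme of Esrp1-/- embryos (knockout, KO), which lack a splicing regulator of epithelial cells on both alleles, and ectoderm and mesenchyme of wild-type (WT) embryos. Each group had 4 libraries, each made from a pool of 6 to 7 mice, but the deposited table holds 1 value per gene and group. So nothing below can be checked against replicates, and no error or p-value can be given. Values are TPM (transcript abundances scaled to a fixed total), which are corrected for transcript length and so can be compared between genes. The sums of the deposited columns differ between the groups, as given below. "Higher" and "lower" describe the deposited values.

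Splicing regulators decide which exons of a pre-mRNA are joined. SR and Tra2 proteins bind mainly enhancers within exons and recruit the spliceosome, many hnRNPs bind silencers and oppose them, and U2 auxiliary factor marks the end of the intron. Regulators such as Esrp1, Rbfox2, Mbnl1, Qk and Rbm47 are known to set epithelial against mesenchymal splice forms, so their levels in ectoderm and mesenchyme are of interest where Esrp1 is lost. Values per gene measure the amount of RNA and not the splice form. In a tissue sample, fewer cells of a type and less RNA per cell cannot be told apart.

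The targeted gene Esrp1 was at 62.9 TPM in KO and 170.0 in WT ectoderm, a log2 ratio of -1.42, and its paralog Esrp2 was at 76.5 TPM in KO and 71.8 in WT ectoderm. In mesenchyme Esrp1 was at 1.0 TPM in both genotypes. Which part of the gene was removed is not in the labels, and RNA from a disrupted allele can remain. A list of 12 epithelial markers summed to 2617 TPM in KO ectoderm, 3109 in WT ectoderm, 27.6 in KO mesenchyme and 26.6 in WT mesenchyme. A list of 18 mesenchyme markers summed to 846 TPM in KO ectoderm, 419 in WT ectoderm, 3082 in KO mesenchyme and 4161 in WT mesenchyme, and no marker of either list was at 0 in any group. KO ectoderm thus held more mesenchyme marker RNA than WT ectoderm, with 14 of the 18 markers at least 1.5-fold higher. Endothelial markers, 11 in number and none at 0, summed to 39.9 TPM in KO ectoderm, 10.3 in WT ectoderm, 216 in KO mesenchyme and 309 in WT mesenchyme. Log2 ratios were taken between values of TPM plus 1 for genes that averaged 1 TPM or more over the groups compared. Their median over all genes was 0.05 for KO over WT ectoderm and -0.12 for KO over WT mesenchyme. For some of the members a ratio is also given GC-corrected, with the trend of all genes on transcript GC content subtracted.

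Most of the splicing regulators were abundant in every group. Their median was 220 TPM in KO ectoderm, 218 in WT ectoderm, 235 in KO mesenchyme and 236 in WT mesenchyme, against medians of 19.5, 19.7, 17.6 and 20.7 TPM, in the same order, over all genes at 1 TPM or more. Together they made up 1.5% of the column sum in KO ectoderm, 1.60% in WT ectoderm and 1.44% in each of the mesenchyme groups. Hnrnpa1, Hnrnpk, Hnrnph1 and Hnrnpa2b1 had the 4 highest values in every group, in this order. Rbfox1, Rbm47, Rbm24 and Nova1, regulators known from neurons, muscle or epithelia, were the members under 5 TPM in most groups.

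**Figure D1:**
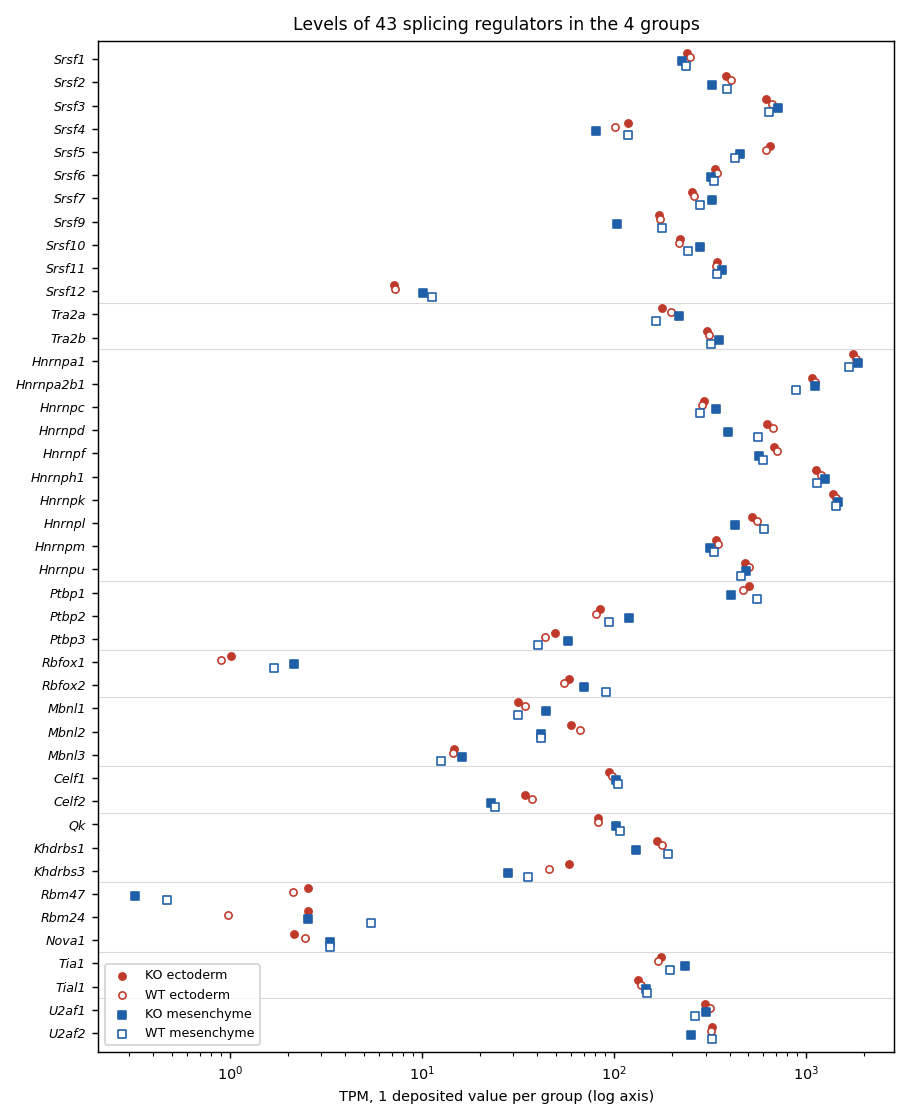
TPM (log axis) of the 43 splicing regulators, ordered by role, with 1 point for each of the 4 groups (circles for ectoderm, squares for mesenchyme, filled for KO, open for WT). In 37 of the 43 members all points lie above 20 TPM, while Rbm47, Rbm24, Rbfox1 and Nova1 lie at the low end.

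The SR genes had nearly the same values in KO and WT ectoderm. Of the 11, 0 were at least 1.5-fold higher in KO ectoderm, against 4.92% of all genes tested, and 0 lower, against 0.452%, and the log2 ratios ran from -0.12 to 0.21. Srsf1, the founding member of the family, was at 239 TPM in KO and 249 in WT ectoderm, and at 226 in KO and 236 in WT mesenchyme. Srsf2, which binds G- and C-rich enhancers, was at 385 TPM in KO and 409.6 in WT ectoderm, and at 323 in KO and 387 in WT mesenchyme. Srsf3, the smallest SR protein, was at 616 TPM in KO and 668 in WT ectoderm, and at 716 in KO and 645 in WT mesenchyme. For all 3, ectoderm and mesenchyme of the same genotype lay within 25% of each other. Log2 ratios of KO over WT were -0.06 in ectoderm and -0.07 in mesenchyme for Srsf1, and -0.12 and 0.15 for Srsf3. GC-corrected, the mesenchyme ratios were 0.19 for Srsf1 and -0.06 for Srsf3.

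Srsf4, Srsf5 and Srsf6 form a subfamily with a pair of RNA recognition motifs and a long tail of serine and arginine. Srsf4 was at 118 TPM in KO and 102 in WT ectoderm, and at 81.2 in KO and 119 in WT mesenchyme. Srsf5 was at 647 TPM in KO and 618 in WT ectoderm, and at 455 in KO and 428 in WT mesenchyme. Srsf6 was at 335 TPM in KO and 346 in WT ectoderm, and at 322 in KO and 331 in WT mesenchyme. Srsf4 was lower in KO than in WT mesenchyme, at a log2 ratio of -0.54, within 1.5-fold (-0.08 GC-corrected), while Srsf5 and Srsf6 were nearly level there. Srsf5 was the SR gene with the largest excess in ectoderm over mesenchyme in WT embryos (log2 ratio 0.53), and the excess was of like size in KO embryos (0.51).

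Srsf9, a close relative of Srsf1, had the largest difference of any SR gene. It was at 171 TPM in KO and 175 in WT ectoderm, and at 104 in KO and 178 in WT mesenchyme. The value in KO mesenchyme is the low one, and the other 3 groups lie close together. The log2 ratio in mesenchyme was -0.77, beyond 1.5-fold, and that in ectoderm -0.03. The mesenchyme ratio was within 1.5-fold when corrected for the GC of the transcript (-0.33) or of the coding part (-0.32). The TPM of Srsf1 was 2.17 times that of Srsf9 in KO mesenchyme, against 1.33 times in WT mesenchyme.

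Srsf7, an SR protein with a zinc knuckle, was at 255 TPM in KO and 262 in WT ectoderm, and at 324 in KO and 282 in WT mesenchyme. Srsf10, which acts as a repressor when dephosphorylated, was at 219.7 TPM in KO and 218 in WT ectoderm, and at 279 in KO and 244 in WT mesenchyme. Srsf11 was at 343 TPM in KO and 341 in WT ectoderm, and at 366 in KO and 344 in WT mesenchyme. These 3 were slightly higher in KO than in WT mesenchyme, all by less than 25%. Their log2 ratios there were 0.20, 0.20 and 0.09. GC-corrected they were -0.01, 0.07 and 0.06. Srsf12, a relative of Srsf10, was the low SR gene, at 7.15 TPM in KO and 7.23 in WT ectoderm, and at 10.1 in KO and 11.3 in WT mesenchyme. Of the Tra2 proteins, which bind enhancers rich in GAA repeats, Tra2a was at 177 TPM in KO and 199 in WT ectoderm, and at 218 in KO and 165 in WT mesenchyme. Tra2b was at 305 TPM in KO and 313 in WT ectoderm, and at 353 in KO and 319 in WT mesenchyme. Tra2a had the highest ratio in KO mesenchyme of the SR and Tra2 genes (0.40) and the lowest in KO ectoderm (-0.16), both within 1.5-fold.

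The hnRNPs were also level in ectoderm, with log2 ratios from -0.10 to 0.03. Of the 10, 9 had ratios just below 0, against 4953 of all 13935 genes tested. At 1.5-fold 0 were higher, against 4.92% of all genes, and 0 lower, against 0.452%. Hnrnpa1, the prototype of the splicing silencer proteins, was at 1764 TPM in KO and 1829 in WT ectoderm, and at 1871 in KO and 1675 in WT mesenchyme, with log2 ratios of -0.05 and 0.16. Its relative Hnrnpa2b1 was at 1075 TPM in KO and 1112 in WT ectoderm, and at 1114 in KO and 889.5 in WT mesenchyme. Hnrnpc, which binds uridine tracts, was at 294 TPM in KO and 288 in WT ectoderm, and at 339.9 in KO and 279.9 in WT mesenchyme. All 3 had their higher mesenchyme value in KO, within 1.5-fold.

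Hnrnpd and Hnrnpl had the lower values in KO mesenchyme. Hnrnpd, also known as a factor of mRNA decay through AU-rich elements, was at 628 TPM in KO and 672 in WT ectoderm, and at 392 in KO and 564 in WT mesenchyme. Hnrnpl, which binds CA repeats, was at 525 TPM in KO and 554 in WT ectoderm, and at 426 in KO and 608 in WT mesenchyme. The mesenchyme ratios were -0.52 for Hnrnpd and -0.51 for Hnrnpl, inside 1.5-fold (-0.68 and -0.16 GC-corrected), and both genes differed by less than 25% in ectoderm. For these genes, as for Srsf9, KO mesenchyme is the group that stands apart.

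The other 5 hnRNPs differed little between KO and WT. Hnrnpm, which in human cells opposes Esrp1 at some shared exons, was at 339 TPM in KO and 348 in WT ectoderm, and at 318 in KO and 332 in WT mesenchyme, with log2 ratios of -0.04 in ectoderm and -0.06 in mesenchyme. Hnrnpk, a protein that binds C-rich RNA, was at 1385 TPM in KO and 1438 in WT ectoderm, and at 1476 in KO and 1440.3 in WT mesenchyme. Both were nearly level across the 4 groups. Hnrnpf was at 679 TPM in KO and 705 in WT ectoderm, and at 567 in KO and 596 in WT mesenchyme. Its relative Hnrnph1, which like it binds runs of G, was at 1126 TPM in KO and 1204 in WT ectoderm, and at 1252 in KO and 1142 in WT mesenchyme. Hnrnpf had somewhat higher values in both ectoderm groups. Hnrnpu, a nuclear matrix protein, was at 482 TPM in KO and 503 in WT ectoderm, and at 489 in KO and 458 in WT mesenchyme.

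The polypyrimidine tract binding genes had ratios of different sign in mesenchyme. Ptbp1, a broad repressor of exons, was at 505 TPM in KO and 469 in WT ectoderm, and at 407 in KO and 554 in WT mesenchyme. Ptbp2, its paralog of neurons, was at 84.2 TPM in KO and 80.6 in WT ectoderm, and at 120.2 in KO and 94.3 in WT mesenchyme. Ptbp3, a paralog known from blood cells, was at 49.1 TPM in KO and 44.0 in WT ectoderm, and at 57.5 in KO and 40.2 in WT mesenchyme. KO over WT log2 ratios in mesenchyme were -0.44 for Ptbp1, 0.35 for Ptbp2 and 0.51 for Ptbp3, each within 1.5-fold. GC-corrected they were -0.05, 0.15 and 0.25. In ectoderm the uncorrected ratios were 0.11, 0.06 and 0.15 in the same order. The TPM of Ptbp1 was 3.39 times that of Ptbp2 in KO mesenchyme, against 5.87 times in WT mesenchyme, and 5.99 times in KO ectoderm, against 5.82 times in WT ectoderm. As background, Ptbp1 is known to repress an exon of Ptbp2 and so to lower its RNA. Whether that bears on these values was not tested.

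Among regulators of epithelial and mesenchymal splice forms, Rbfox2 and Qk had higher values in mesenchyme, and Mbnl2 in ectoderm. Rbfox2, which binds GCAUG, was at 58.2 TPM in KO and 54.9 in WT ectoderm, and at 70.1 in KO and 91.2 in WT mesenchyme. The KO over WT log2 ratio of Rbfox2 was 0.08 in ectoderm and -0.38 in mesenchyme (0.05 and -0.14 GC-corrected). Qk, which binds ACUAA, was at 82.6 TPM in KO and 82.6 in WT ectoderm, and at 103 in KO and 108 in WT mesenchyme, with ratios of 0.00 and -0.07. Rbfox1, the paralog of neurons and muscle, was at 1.02 TPM in KO and 0.90 in WT ectoderm, and at 2.15 in KO and 1.70 in WT mesenchyme. It was under the minimum for the ectoderm comparison, and the TPM of Rbfox2 was at least 32.6 times as high in every group.

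The muscleblind proteins bind motifs with a central GC and are known from myotonic dystrophy. Mbnl1 was at 31.6 TPM in KO and 34.6 in WT ectoderm, and at 44.2 in KO and 31.6 in WT mesenchyme. Mbnl2 was at 59.7 TPM in KO and 66.5 in WT ectoderm, and at 42.0 in KO and 41.8 in WT mesenchyme. Mbnl3 was at 14.7 TPM in KO and 14.6 in WT ectoderm, and at 16.3 in KO and 12.5 in WT mesenchyme. Mbnl1 was highest in KO mesenchyme, at a KO over WT log2 ratio of 0.47, against 0.00 for Mbnl2 and 0.35 for Mbnl3. GC-corrected they were 0.20, -0.20 and 0.29. In ectoderm the uncorrected ratios were -0.13, -0.15 and 0.01. The TPM of Mbnl1 was 1.05 times that of Mbnl2 in KO mesenchyme and 0.75 times in WT mesenchyme, and 0.53 times in KO ectoderm and 0.52 times in WT ectoderm. Mbnl2 was thus the highest muscleblind gene in both ectoderm groups and in WT mesenchyme, and in KO mesenchyme Mbnl1 was level with it.

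Celf proteins bind GU-rich RNA and oppose muscleblind proteins at some exons of heart and muscle. Celf1 was at 94.2 TPM in KO and 97.8 in WT ectoderm, and at 103 in KO and 105 in WT mesenchyme, and its KO over WT log2 ratios were -0.05 and -0.03. Celf2 was at 34.3 TPM in KO and 37.6 in WT ectoderm, and at 22.9 in KO and 24.1 in WT mesenchyme, with ratios of -0.13 and -0.07. Celf1 was level across the 4 groups, while Celf2 was higher in both ectoderm groups.

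**Figure D2:**
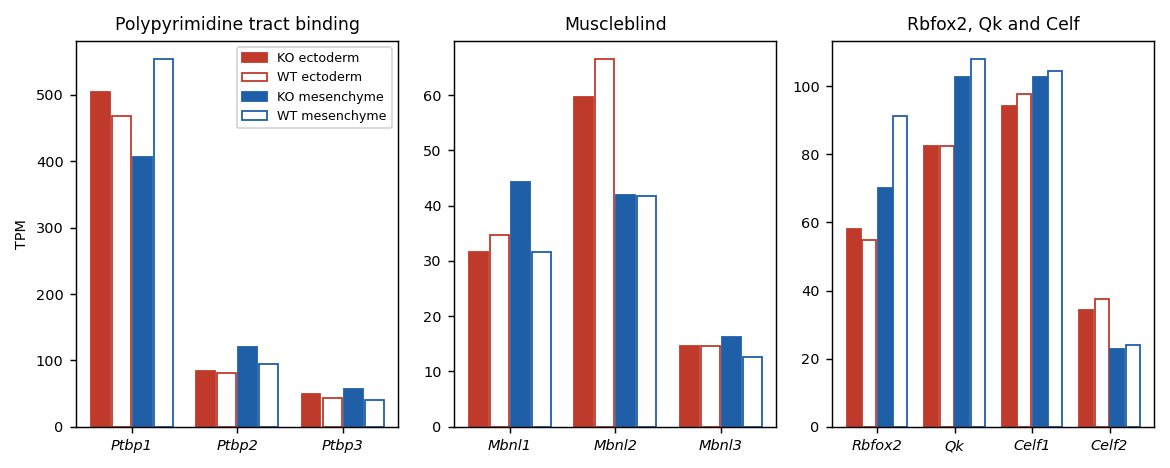
TPM (linear axis from 0) of the polypyrimidine tract binding genes, the muscleblind genes, and Rbfox2, Qk, Celf1 and Celf2, with 1 bar for each of the 4 groups. Ptbp1 is lowest and Ptbp2, Ptbp3 and Mbnl1 are highest in KO mesenchyme, and Mbnl2 and Celf2 are higher in ectoderm than in mesenchyme.

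The signal transduction and activation of RNA (STAR) proteins Khdrbs1 and Khdrbs3 had lower values in KO than in WT mesenchyme. Khdrbs1, known as Sam68, was at 168 TPM in KO and 178 in WT ectoderm, and at 129.9 in KO and 191 in WT mesenchyme. Its log2 ratio in mesenchyme was -0.55, just inside 1.5-fold (-0.62 GC-corrected, beyond it). Khdrbs3 was at 58.6 TPM in KO and 45.8 in WT ectoderm, and at 28.1 in KO and 35.7 in WT mesenchyme. Its ratios were 0.35 in ectoderm and -0.33 in mesenchyme, both within 1.5-fold and of opposite sign. GC-corrected they were 0.31 and -0.08.

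Rbm24, a splicing regulator of heart and skeletal muscle, was the member with the largest differences, at low values. It was at 2.55 TPM in KO and 0.98 in WT ectoderm, and at 2.56 in KO and 5.43 in WT mesenchyme. WT ectoderm is the low group and WT mesenchyme the high one, and the KO groups are level with each other. The log2 ratio was 0.84 in ectoderm and -0.85 in mesenchyme, both beyond 1.5-fold. A list of 13 skeletal muscle markers summed to 104 TPM in KO ectoderm, 36.7 in WT ectoderm, 401 in KO mesenchyme and 502 in WT mesenchyme, with none at 0. These sums move in the same directions as Rbm24, and their part in the result was not tested. A share of carried-over RNA was computed from 15 of the mesenchyme markers. They were picked for low WT ectoderm TPM, with the WT mesenchyme value exceeding it by a factor of 5 or more. Col5a1, Msx1 and Fbn1 were left out by this rule, which itself keeps the WT share small. Were all ectoderm RNA of the 15 carried over from mesenchyme, that RNA would make up 22.7% of KO and 4.04% of WT ectoderm RNA. With that part subtracted the log2 ratio of Rbm24 in ectoderm was 0.98. Whether carry-over has a part in the Rbm24 ratio was not tested.

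Rbm47, an epithelial splicing regulator that also assists RNA editing, was at 2.55 TPM in KO and 2.14 in WT ectoderm, and at 0.32 in KO and 0.47 in WT mesenchyme. Both ectoderm values exceed both mesenchyme values. It was under the minimum for the KO comparison in mesenchyme, and its ratio in ectoderm was 0.18. Nova1, a regulator of neurons, was at 2.15 TPM in KO and 2.46 in WT ectoderm, and at 3.31 in KO and 3.34 in WT mesenchyme, with 13 neuron markers at a sum of 168 TPM in KO ectoderm, 125 in WT ectoderm, 467 in KO mesenchyme and 304 in WT mesenchyme. The marker sum was higher in KO than in WT in both layers, while Nova1 was slightly lower.

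Tia1 and Tial1 bind U-rich RNA next to splice sites and are also found in stress granules. Tia1 was at 175 TPM in KO and 169 in WT ectoderm, and at 235 in KO and 195 in WT mesenchyme. Tial1 was at 134 TPM in KO and 139 in WT ectoderm, and at 147 in KO and 149 in WT mesenchyme. Tia1 was highest in KO mesenchyme and Tial1 nearly level. Their KO over WT log2 ratios in mesenchyme were 0.27 and -0.02, and 0.10 and -0.19 GC-corrected. U2af1, the subunit that contacts the end of the intron, was at 296 TPM in KO and 317 in WT ectoderm, and at 301 in KO and 264 in WT mesenchyme. U2af2, the subunit that binds the polypyrimidine tract, was at 323 TPM in KO and 319 in WT ectoderm, and at 252 in KO and 323 in WT mesenchyme. In KO mesenchyme the subunits had ratios of opposite sign, 0.19 for U2af1 and -0.36 for U2af2, both within 1.5-fold. GC-corrected they were 0.55 and 0.06, of the same sign.

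Across all members, KO and WT ectoderm were close. Of 42 members that reached the minimum, 1 (Rbm24) was at least 1.5-fold higher, against 4.92% of all 13935 genes tested, and 0 were lower, against 0.452%. With a smaller threshold, a difference of 25% of the lower value of TPM + 1, 2 were higher (Rbm24 and Khdrbs3), against 12.2% of all genes, and 0 lower, against 2.05%. The median log2 ratio was -0.04, against 0.05 over all genes, and 40 of the 42 members (95.2%) differed by less than 25%, against 85.7% of all genes. The members had a higher median TPM than all genes. With a minimum of 5 TPM, 0 of 39 members were 1.5-fold higher, against 2.92% of all genes, and 0 lower, against 0.369%. Whether their level bears on their closeness, here or between the layers, was not tested. With no values per library, how far such ratios vary between embryos is unknown.

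In mesenchyme the members were more spread. Of 42 tested, 2 (Rbm24 and Srsf9) were at least 1.5-fold lower in KO, against 13.4% of all 14233 genes tested, and 0 were higher, against 2.33%. At the 25% threshold, 10 were lower (Rbm24, Srsf9, Khdrbs1, Srsf4, Hnrnpd, Hnrnpl, Ptbp1, Rbfox2, U2af2 and Khdrbs3), against 30.7% of all genes. At the same threshold, 6 were higher (Ptbp3, Mbnl1, Tra2a, Mbnl3, Ptbp2 and Hnrnpa2b1), against 8.52%. The median was 0.00, against -0.12 over all genes, and 26 members (61.9%) differed by less than 25%, against 60.8% of all genes. After the median of all genes was set to 0, Mbnl1 and Ptbp3 were also beyond 1.5-fold, on the higher side, against 4.15% of all genes, and Srsf9 and Rbm24 on the lower side, against 8.18%.

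**Figure D3:**
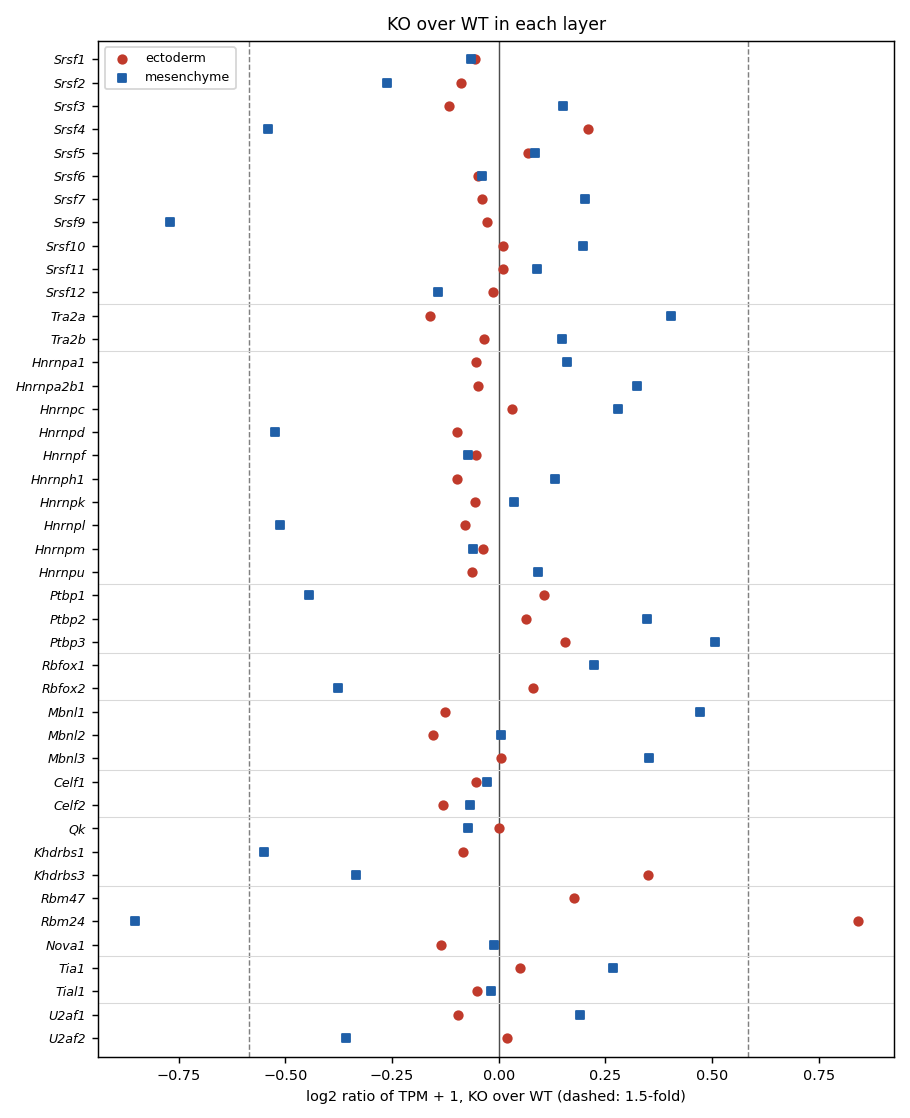
Log2 ratio of TPM + 1, KO over WT, of each splicing regulator in ectoderm (circles) and mesenchyme (squares), with dashed lines at 1.5-fold. In ectoderm Rbm24 (0.84) is the member beyond the lines, and in mesenchyme Rbm24 (-0.85) and Srsf9 (-0.77). Rbfox1 has no ectoderm and Rbm47 no mesenchyme point.

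The direction in KO mesenchyme went with the base composition of the transcripts. GC content of the members' transcripts ranged from 37.8% to 56.8%, with a median of 44.1%, against a median of 50.4% over 10933 genes averaging 5 TPM or more. Of 11 members tested at 50% GC or more, 9 had ratios below 0, against 4976 of 5693 genes in that range. The median was -0.38, the same as over those genes. Of 25 members under 45% GC, 17 had ratios above 0, against 1853 of 2403 genes, and the median was 0.13, against 0.16 for those genes. Over the 42 members, Pearson's r between GC and the ratio was -0.60 and Spearman's rho -0.54. They were -0.59 and -0.66 over the 10939 genes tested in mesenchyme that averaged 5 TPM or more over the 4 groups. In ectoderm r was 0.31 over the members and 0.22 over 11046 genes. These correlations are across genes of the same pooled values, and genes are not independent replicates.

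**Figure D4:**
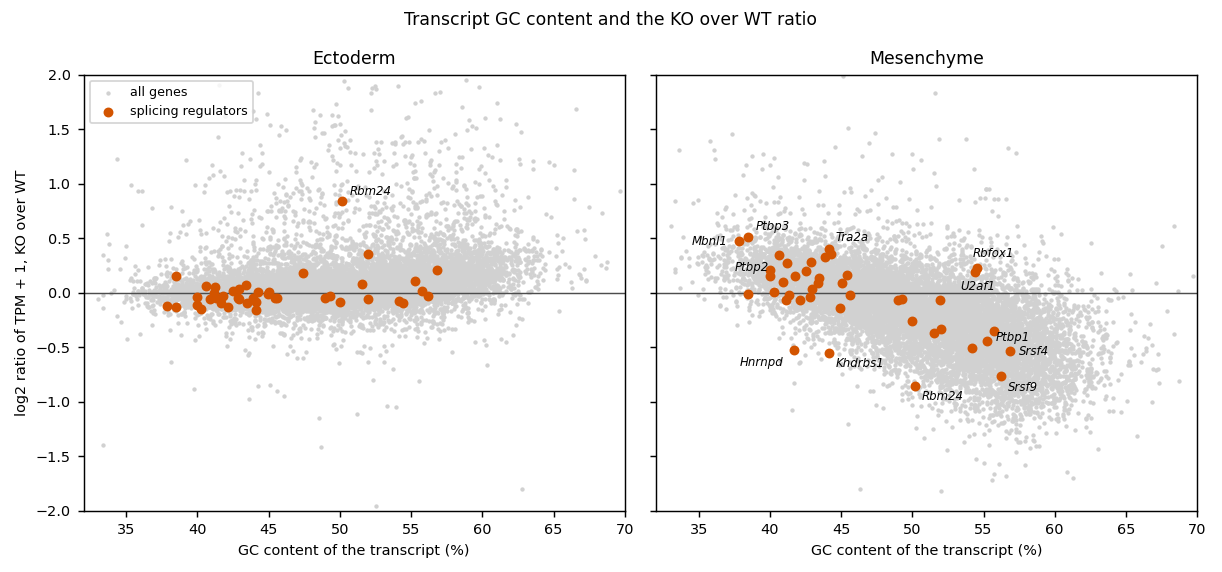
Log2 ratio of TPM + 1, KO over WT, against the GC content of the transcript in ectoderm (left) and mesenchyme (right), for 10933 genes averaging 5 TPM or more (grey) and the splicing regulators (orange). In mesenchyme both slope downward with GC (r of -0.60 for the regulators). Points beyond the axes, 19 genes in ectoderm and 21 in mesenchyme, are not drawn.

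Base composition also differs between the coding sequences. The first 120 coding bases are printed for the 3 members with the lowest and the 3 with the highest ratio in KO mesenchyme among those averaging 5 TPM or more, and for Ptbp1, the paralog of Ptbp3 with a ratio of the other sign. Sequences are those of the transcript with the longest coding part in GENCODE M21 (GRCm38), in coding direction from the start codon. Capitals mark a G or C at the last position of a codon. Srsf9 (chr5:115327177-115333080, plus strand), Khdrbs1 (chr4:129703164-129742303, minus strand) and Srsf4 (chr4:131873617-131901706, plus strand) are the low ones, with 39, 33 and 35 codons of 40 ending in G or C.
Srsf9: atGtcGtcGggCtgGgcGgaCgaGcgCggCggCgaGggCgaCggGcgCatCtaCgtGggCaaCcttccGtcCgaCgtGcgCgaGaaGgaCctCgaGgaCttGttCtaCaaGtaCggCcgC
Khdrbs1: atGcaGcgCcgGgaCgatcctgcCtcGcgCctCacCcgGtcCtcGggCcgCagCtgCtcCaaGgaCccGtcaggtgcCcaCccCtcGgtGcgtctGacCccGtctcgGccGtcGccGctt
Srsf4: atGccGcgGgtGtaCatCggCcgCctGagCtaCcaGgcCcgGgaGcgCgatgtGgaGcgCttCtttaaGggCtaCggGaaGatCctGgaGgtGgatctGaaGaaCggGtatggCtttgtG
Mbnl1 (chr3:60472830-60629750, plus strand), Tra2a (chr6:49243924-49264033, minus strand) and Ptbp3 (chr4:59471868-59549364, minus strand) are the high ones, with 13, 15 and 14 such codons.
Mbnl1: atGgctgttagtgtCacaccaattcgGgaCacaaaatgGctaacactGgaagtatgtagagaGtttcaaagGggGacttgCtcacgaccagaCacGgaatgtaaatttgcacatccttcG
Tra2a: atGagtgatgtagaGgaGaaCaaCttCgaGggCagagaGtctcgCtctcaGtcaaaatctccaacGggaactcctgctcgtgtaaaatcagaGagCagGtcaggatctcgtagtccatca
Ptbp3: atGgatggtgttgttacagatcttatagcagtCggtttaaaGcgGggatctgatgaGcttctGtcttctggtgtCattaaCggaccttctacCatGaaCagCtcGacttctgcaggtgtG
Ptbp1 (chr10:79854427-79864771, plus strand) has 28 such codons, more than Ptbp3.
Ptbp1: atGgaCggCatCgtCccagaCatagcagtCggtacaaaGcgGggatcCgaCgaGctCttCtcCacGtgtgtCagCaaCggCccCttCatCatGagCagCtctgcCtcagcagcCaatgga

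Over whole coding sequences, codons ending in G or C made up 72.4% in Ptbp1, 37.4% in Ptbp2 and 42.2% in Ptbp3, although Ptbp1 is identical to Ptbp2 at 70.4% and to Ptbp3 at 73.3% of aligned coding bases. They made up 66.2% in Srsf9, 66.6% in Srsf4 and 51.5% in Khdrbs1, and 47.8% in Mbnl1 and 40.1% in Tra2a. Khdrbs1, rich in such codons at its start, was thus close to Mbnl1 over its whole coding part, and its transcript GC of 44.1% lies under 45%. The share of such codons had an r of -0.68 with the mesenchyme ratio over the 42 members, and -0.53 over 10583 genes averaging 5 TPM or more.

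After the trend with transcript GC over all genes was subtracted, the ratios in KO mesenchyme were -0.33 for Srsf9, -0.08 for Srsf4, -0.16 for Hnrnpl, -0.05 for Ptbp1, 0.15 for Ptbp2, 0.25 for Ptbp3 and 0.20 for Mbnl1, all within 1.5-fold. Beyond 1.5-fold on the lower side were then Hnrnpd (-0.68), Rbm24 (-0.67) and Khdrbs1 (-0.62), against 2.28% of all genes. On the higher side was Rbfox1 (0.59), against 4.57%, at 2.15 TPM in KO and 1.70 in WT mesenchyme (0.22 uncorrected). Rbm24 and Rbfox1 average under 5 TPM, the minimum of the genes on which the trend was fitted. The transcript GC of Hnrnpd is 41.7% and that of its coding part 50.6%, and for Khdrbs1 they are 44.1% and 55.2%. With the trend on the GC of the coding part in its place, an alternative chosen after seeing the data, these genes were at -0.42 and -0.23. Rbm24 was then at -0.36, and Mbnl1 (0.60) was the single member beyond 1.5-fold, against 3.43% of all genes higher and 2.39% lower. Libraries whose labels list 2 index barcodes numbered 2 of 4 in KO mesenchyme and 0 of 4 in WT mesenchyme, against 2 and 1 of 4 in KO and WT ectoderm, and their part in the GC trend was not tested.

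Between the layers, most splicing regulators were alike in WT embryos. Of 43 members, 1 was at least 2-fold higher in ectoderm (Rbm47, log2 ratio 1.09), against 6.88% of all 14242 genes tested, and 1 at least 2-fold lower (Rbm24, -1.70), against 12.1%. The median was 0.04, against -0.15 over all genes, and 32 members (74.4%) differed by less than 25%, against 46.5% of all genes. Next on the ectoderm side came Mbnl2 (0.66), Celf2 (0.62) and Srsf5 (0.53), and on the mesenchyme side Rbfox2 (-0.72), Srsf12 (-0.58), Rbfox1 (-0.51) and Qk (-0.38). Ptbp1 (-0.24), Ptbp2 (-0.22), Ptbp3 (0.13), Mbnl1 (0.13), Mbnl3 (0.21), Celf1 (-0.10), Srsf1 (0.08), Srsf3 (0.05), Hnrnpm (0.07) and Hnrnpa1 (0.13) all differed by less than 25%. By comparison Esrp1 had a layer ratio of 6.41 and Esrp2 of 5.21 in WT embryos.

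In KO embryos 2 members were at least 2-fold higher in ectoderm, Rbm47 (1.43) and Khdrbs3 (1.03), against 9.06% of all 14411 genes tested, and 0 were lower, against 6.88%. Khdrbs3 lies just past 2-fold and was inside it, at 0.94, once the GC trend was subtracted. Next on the ectoderm side came Srsf9 (0.71) and Hnrnpd (0.68), at 0.44 and 0.84 GC-corrected. The ratio of Rbm24 was 0.00. Mbnl2 (0.50), Celf2 (0.56) and Srsf5 (0.51) were again higher in ectoderm, and Rbfox2 (-0.26) and Qk (-0.31) again higher in mesenchyme. Some members had layer ratios of opposite sign in KO and WT embryos. Among them were Srsf9 (0.71 in KO and -0.03 in WT), Srsf4 (0.53 and -0.22), Khdrbs1 (0.37 and -0.10), Ptbp1 (0.31 and -0.24), Hnrnpl (0.30 and -0.13), Mbnl1 (-0.47 and 0.13) and Tra2a (-0.30 and 0.27). GC-corrected, the signs were the same in both for Srsf9 (0.44 in KO and 0.22 in WT), Srsf4 (0.24 and 0.05) and Hnrnpl (0.12 and 0.09). Ptbp1 was then near 0 in both (0.08 and -0.01). Khdrbs1 (0.48 and -0.07), Mbnl1 (-0.24 and 0.07) and Tra2a (-0.18 and 0.30) still had opposite signs.

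**Figure D5:**
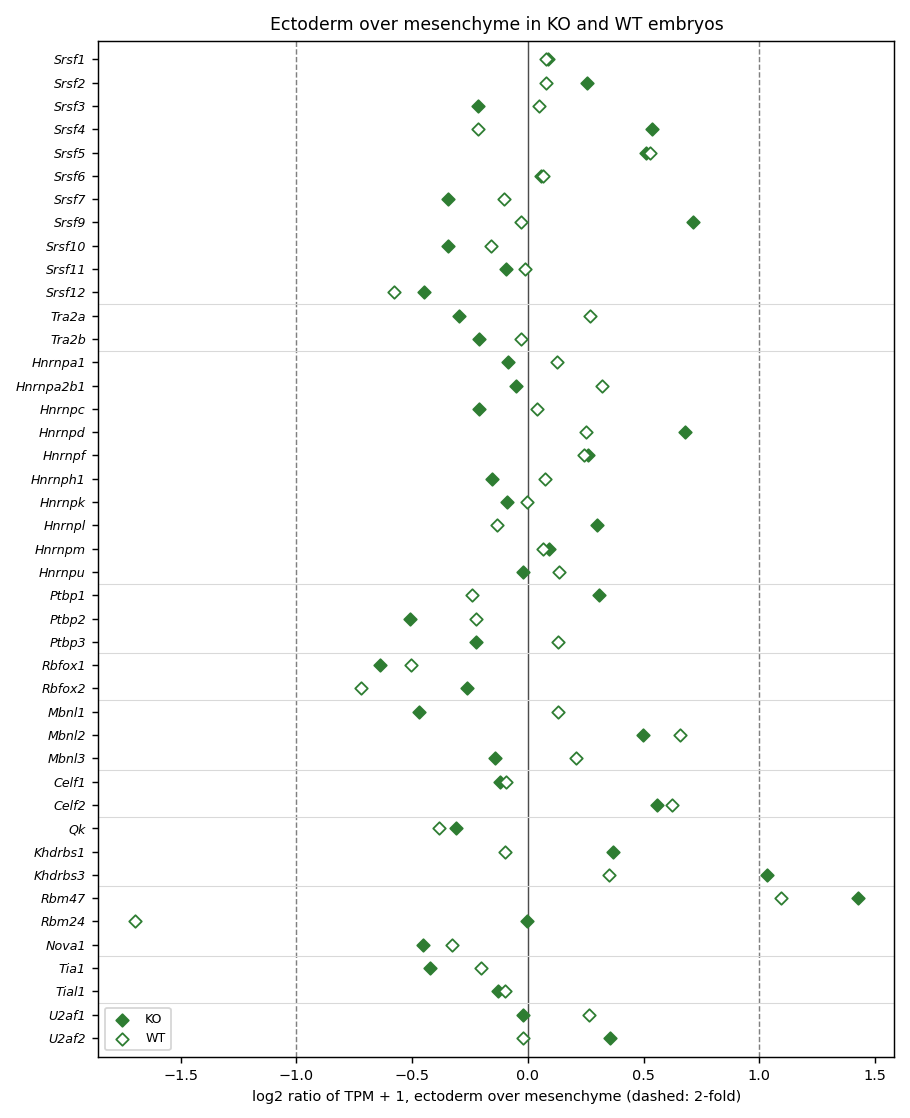
Log2 ratio of TPM + 1, ectoderm over mesenchyme, of each splicing regulator in KO (filled) and WT (open) embryos, with dashed lines at 2-fold. Rbm47 lies beyond 2-fold on the ectoderm side in both, Khdrbs3 in KO, and Rbm24 on the mesenchyme side in WT.

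The KO effect in ectoderm minus that in mesenchyme was beyond 2-fold for 1 of 43 members, Rbm24 (1.70), against 7.34% of all 14329 genes on that side, and for 0 members on the other, against 0.593%. Srsf4 (0.75), Srsf9 (0.74) and Khdrbs3 (0.68) came next on the same side, and Mbnl1 (-0.60) and Tra2a (-0.56) were the lowest. This order depended on the correction: GC-corrected, Rbm24 was at 1.49, Hnrnpd (0.59) and Khdrbs1 (0.53) came next, Srsf4 was at 0.18, Srsf9 at 0.21 and Khdrbs3 at 0.38, and U2af1 (-0.72) was the lowest. The median was -0.06, against 0.19 over all genes. The comparisons share groups, so they are not independent of each other.

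Other genes of splicing were taken from 5 lists with 102 genes. In KO ectoderm, 3 of 96 tested were at least 1.5-fold higher (Celf3, Elavl4 and Elavl3), against 4.92% of all genes, and 1 lower (Esrp1, the targeted gene), against 0.452%. Celf3 was at 3.19 TPM in KO and 1.26 in WT ectoderm, Elavl4 at 6.18 TPM in KO and 3.28 in WT ectoderm and Elavl3 at 2.66 TPM in KO and 1.36 in WT ectoderm. The Elavl genes are neuron genes that also stand in the list of neuron markers. The median over the 96 was 0.03, against 0.05 over all genes. None of the 10 genes tested for kinases and phosphatase of SR proteins, the 18 further SR-related genes, the 18 further hnRNPs and the 34 genes of the core spliceosome was 1.5-fold apart in ectoderm.

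In KO mesenchyme, 4 of 100 tested were at least 1.5-fold higher, against 2.33% of all genes, and 13 lower, against 13.4%, with a median of -0.08, against -0.12 over all genes. GC-corrected, 7 were higher, against 4.57% of all genes, and 6 lower, against 2.28%. In the core spliceosome 4 of 34 were lower, against 13.4% of all genes, and 0 higher, against 2.33%. The 4 were the U2 particle genes Sf3a2 (35.1 TPM in KO and 83.9 in WT mesenchyme), Sf3b4 (45.4 TPM in KO and 105 in WT mesenchyme) and Sf3a1 (49.1 TPM in KO and 96.3 in WT mesenchyme), and Prpf8 (108 TPM in KO and 175 in WT mesenchyme), the scaffold of the catalytic centre. GC-corrected, 3 of the 34 were lower, a share above the 2.28% of all genes, and 0 higher, against 4.57%. Sf3a2 (-0.65), Sf3b4 (-0.76) and Sf3a1 (-0.78) were still beyond 1.5-fold and Prpf8 (-0.45) was within it. Of 19 SR-related genes 2 were lower, Scaf1 (-1.43) and Scaf4 (-0.62), at -0.84 and -0.25 GC-corrected. Srrm3 (0.98) and Srrm4 (0.80) were then higher, against 0.41 and 0.53 uncorrected. Srrm3 was at 4.63 TPM in KO and 3.25 in WT mesenchyme, and Srrm4 at 1.61 in KO and 0.81 in WT mesenchyme. Of 18 further hnRNPs, Hnrnpul1 (-0.64), Pcbp1 (-0.64) and Hnrnpab (-0.63) were lower and Hnrnpa3 (0.64) higher. GC-corrected they were at -0.30, -0.15, -0.22 and 0.60, and Pcbp2 (-0.61) was then the single one lower. Of 18 further tissue-specific regulators 4 were lower, led by Rbm38 (-0.92) and Rbpms2 (-0.90), and 3 higher, led by Elavl2 (0.94) and Elavl4 (0.89). GC-corrected, these named genes were at -0.35, -0.54, 0.99 and 0.65, and Zfp36l1 (-0.61) was then the single one lower. None of the 11 kinase and phosphatase genes was 1.5-fold apart, the furthest being the phosphatase gene Ppp1ca (-0.54). Between layers, 4 of 99 passed 2-fold toward ectoderm and 4 toward mesenchyme in KO embryos, against 9.06% and 6.88% of all genes. In WT embryos 3 and 6 of 98 did, against 6.88% and 12.1%.

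Some values could share reads with other genes. Of the members, 13 have pseudogene copies in the annotation, 40 in all, at 90% identity or more over at least 50% of the coding sequence. The copies of Hnrnpa1 summed to 8.61% of its TPM in KO ectoderm, 4.44% in WT ectoderm, 5.86% in KO mesenchyme and 7.38% in WT mesenchyme, and those of Hnrnpc to at most 7.41%. For Tra2b the copies were at 4.85% in KO mesenchyme and at most 1.14% elsewhere, and for the other members with copies under 1%. Exons of 13 members overlap exons of another gene on the opposite strand, among them Srsf2, Ptbp1, Hnrnpk and Hnrnpu, and whether the counting used strand is not given in the sources used here. On the same strand, exons of Hnrnpm overlap those of March2 and exons of Tia1, Nova1 and Rbm47 those of other annotated genes. The annotation lists transcripts subject to nonsense-mediated decay for 28 of the 43 members, including 11 of the 13 SR and Tra2 genes. Values per gene do not separate them from coding transcripts.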

How the data were processed

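The deposited table gives the authors' TPM (transcript abundances scaled to a fixed total) of each gene in 4 columns, 1 per group. The columns differ in their sums and were used as deposited. The labels list 4 libraries per group, and how the authors combined them, and whether counting used strand, is not given in the sources used here. STAR 2.5.2a, kallisto 0.43.0 and the genome build mm10 are named per the submitters' processing notes, with no role stated there. TPM holds no depth, so the depth behind a value is unknown.

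For symbols in several rows (103 of 30286) the row highest in total was used. Srsf1, with 2 rows, was the 1 member among them. Log2 ratios were computed on the log2(TPM + 1) scale, which understates the change of low genes, for genes averaging 1 TPM or more over the groups compared. Members were counted past 1.5-fold (KO over WT) or 2-fold (between layers, and between KO effects). With 1 value per group no test was possible, so the limma fit planned for values per library was not run. Transcript composition came from GENCODE M21 (GRCm38, the same assembly as mm10), 1 transcript per gene, and was found for 29994 symbols including all 43 members. The GC correction subtracted a lowess trend (fraction 0.3) fitted on genes averaging 5 TPM or more, using Python 3.11.15, pandas 2.3.3, statsmodels 0.14.6 and, for pseudogene copies, BLAST 2.17.0. The ratio and correction steps were tested on simulated data.

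The members and lists were chosen with earlier results of these data known. Every member is named with its 4 values. Ratios are given for members past the fold used, for 15 preselected regulators (the Ptbp and Mbnl genes, Rbfox2, Qk, Rbm47, Celf1, Celf2, Srsf1, Srsf3, Hnrnpm and Hnrnpa1) and, of the pathway lists, for up to 4 genes with the largest ratios. Ratios of other members were chosen after their values were seen.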

Additional observations from a re-analysis of the deposited data

Results flagged for a closer look

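Rbm24, the muscle splicing regulator, had KO over WT log2 ratios of opposite sign in the layers, 0.84 in ectoderm and -0.85 in mesenchyme, a difference of 1.70. It was at 2.55 TPM in KO and 0.98 in WT ectoderm, and at 2.56 in KO and 5.43 in WT mesenchyme. With 1 value per group the difference was not tested, and it rests on low values. Skeletal muscle markers summed to 104 TPM in KO ectoderm, 36.7 in WT ectoderm, 401 in KO mesenchyme and 502 in WT mesenchyme, and their part in the result was not tested.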

How the results depend on the processing

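No paired analysis was possible because the table gives 1 value per group, and for the same reason leaving out each replicate and the replicate block were not run. No ratio beyond the fold used reversed its sign under the 14 alternatives. The one on coding GC was chosen after seeing the data. The share of all genes past the same threshold follows each count. With a minimum of 5 TPM, 0 members were higher in KO ectoderm (2.92%) and 1 (Srsf9) lower in KO mesenchyme (15.6%). The same minimum left 1 member (Khdrbs3) higher in ectoderm of KO embryos (8.62%), 0 higher (6.12%) and 0 lower (9.78%) in ectoderm of WT embryos, and 0 for the difference of KO effects (7.76%), since Rbm24 and Rbm47 lie under it. With smaller thresholds (25% for KO, 1.5-fold otherwise), 2 members were higher in KO ectoderm (12.2%), and 6 higher (8.52%) and 10 lower (30.7%) in KO mesenchyme. Between layers 4 were then higher (17.6%) and 1 (Rbfox1) lower (13.4%) in ectoderm of KO embryos, and 3 higher (10.9%) and 2 lower (21.4%) in ectoderm of WT embryos. The difference of KO effects then had 4 on the higher (22.9%) and 1 (Mbnl1) on the lower side (2.35%). In KO mesenchyme, members higher numbered 2 with the median set to 0 (4.15%), with quantile normalization (4.54%) and with the length trend subtracted (4.27%), and 1 with the GC trend of the transcript (Rbfox1, 4.57%) or of the coding part (Mbnl1, 3.43%). Members lower there numbered 0 with the coding trend (2.39%) and 3 with the transcript trend (2.28%). Quantile normalization (8.23%) and the GC (7.46%), coding GC (7.39%) and length (8.4%) trends each left 1 member (Rbm47) higher in ectoderm of KO embryos. A pseudocount of 0.1 put 1 member lower in ectoderm than in mesenchyme of KO embryos (9.22%). Apart from the minimum and the thresholds, the cause of these shifts was not tested. Over the alternatives Rbm24 ranged between 0.64 and 1.30 in ectoderm and between -1.06 and -0.36 in mesenchyme. The median of all genes, -0.12 in KO mesenchyme and -0.15 between WT layers, was 0 by construction with the median set to 0. Without values per library, differences within the spread between libraries cannot be recognized.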
